A study of Mus musculus with 9 samples.

Results

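Gap junctions join keratinocytes through channels built from connexins, and this account covers 4 connexin genes of mouse epidermis, Gja1, Gjb2, Gjb6 and Gjb5, in newborn animals labelled as knockout for Alox12b and in animals labelled wildtype. The members were all probe sets that the platform annotation assigned to 1 of these genes and to no other, which gave 9 of the 45037 probe sets in the table. Gja1 (Cx43) had 6 probe sets, and Gjb2 (Cx26), Gjb6 (Cx30) and Gjb5 (Cx31.1) had 1 each. Where 1 value per gene was needed, the brightest probe set by its mean on the 9 arrays was used, which gave 4 of 18193 genes.

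RNA of trunk epidermis had been hybridised to 9 Affymetrix Mouse Genome U430 2.0 arrays, 4 labelled Alox12b-KO and 5 labelled wildtype. All animals were pups killed at birth, the pups came from matings of heterozygous knockout parents, and the labels give the strain 129S6 for the wildtype samples only. Every epidermal sheet had been loosened from the dermis in hot buffered saline, so all groups share that treatment. Alox12b encodes the 12R-lipoxygenase that prepares acylceramides for the lipid envelope of the epidermal barrier, and pups without it lose water through the skin.

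Connexin subunits assemble into hemichannels in the cell membrane, and hemichannels of neighbouring cells dock to form channels that pass ions, calcium signals and small metabolites. Gja1 is the connexin found most widely in the living layers of the epidermis and is also made by dermal fibroblasts and smooth muscle. Gjb2 and Gjb6 are neighbouring genes whose products can share a channel, and in skin both are known for being induced in wounds and in hyperproliferative epidermis. Gjb5 is a connexin of the upper epidermal layers.

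The arrays differed in ways that touch these genes. Medians over all probe sets ran from 3.14 to 3.31 on the log2 scale, highest on knockout arrays 3 and 4, and on these the spread over probe sets was narrowest, with an SD of 2.05 and 2.03 against 2.14 to 2.24 on the other arrays. The female pattern of Xist was present on all 4 knockout arrays, at 9.99 to 10.20, and on wildtype array 4, at 10.95, while the other wildtype arrays read 3.23 to 4.32. Sex and genotype therefore nearly coincide, and their parts in the values below cannot be told apart except where the single female wildtype array is used. The only probe set of Alox12b read 11.13 ± 0.33 (SD, n = 4) on the knockout and 10.91 ± 0.29 (SD, n = 5) on the wildtype arrays. Which part of the gene was deleted is not given in the labels, so this value checks nothing. In bulk epidermis fewer cells of a kind and less RNA per cell cannot be told apart.

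The stretch of 250 bases before the RefSeq start of each gene is shown here because Gjb2 and Gjb6 followed each other closely across the arrays. Gjb5 ran against them. Gja1 had a Pearson r of 0.17 with Gjb2 and 0.14 with Gjb6, or 0.64 and 0.62 with group means taken out and without wildtype array 5. The sequences are from RefSeq on build GRCm38.p6 and are written 5′ to 3′ on the strand of the gene, with capitals for matches to 4 core promoter and activator motifs, searched on both strands with N for any base. TATAAA is the letters of the TATA box. GGGCGG is the GC box that Sp1 binds. CCAAT is the letters bound by NF-Y. TGANTCA is the AP-1 motif.
Gjb2, chr14:57104703-57104952, minus strand: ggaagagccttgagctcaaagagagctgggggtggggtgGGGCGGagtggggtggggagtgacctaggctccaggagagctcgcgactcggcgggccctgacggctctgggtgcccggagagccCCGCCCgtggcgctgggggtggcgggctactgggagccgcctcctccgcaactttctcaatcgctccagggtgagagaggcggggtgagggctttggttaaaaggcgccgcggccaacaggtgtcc
Gjb6, chr14:57133612-57133861, minus strand: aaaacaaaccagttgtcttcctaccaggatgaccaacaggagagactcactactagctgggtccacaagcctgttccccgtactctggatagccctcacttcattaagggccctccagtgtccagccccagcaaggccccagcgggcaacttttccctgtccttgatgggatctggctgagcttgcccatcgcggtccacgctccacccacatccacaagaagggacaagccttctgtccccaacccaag
Gjb5, chr4:127358165-127358414, minus strand: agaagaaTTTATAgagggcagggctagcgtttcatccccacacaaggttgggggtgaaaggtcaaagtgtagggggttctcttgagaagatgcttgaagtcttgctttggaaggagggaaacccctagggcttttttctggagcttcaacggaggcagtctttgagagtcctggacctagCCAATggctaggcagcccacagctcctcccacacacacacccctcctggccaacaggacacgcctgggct
Gja1, chr10:56377050-56377299, plus strand: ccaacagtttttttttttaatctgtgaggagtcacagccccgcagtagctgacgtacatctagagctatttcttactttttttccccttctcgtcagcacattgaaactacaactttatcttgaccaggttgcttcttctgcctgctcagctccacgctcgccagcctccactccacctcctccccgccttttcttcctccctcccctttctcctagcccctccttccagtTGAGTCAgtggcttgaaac
The Gjb2 window had 69.2% G and C and the Gjb6 window 56.8%, against 54.4% for Gjb5, less for Gja1 and a median of 52.4% over 32851 such windows. GGGCGG was found in the Gjb2 window only, at 2 places that begin 211 and 126 bases before the start, and 32.7% of all windows hold it. The Gjb6 window held none of the 4 motifs. The Gjb5 window held TATAAA, read on the opposite strand 243 bases before the start, and CCAAT 70 bases before it, which 12.4% and 33.8% of all windows hold. TGANTCA stood 19 bases before the start of Gja1 and is in 6.75% of all windows. None of the 4 motifs was in more than 1 of the 4 windows. These matches are letters in a window and not measured binding sites.

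Gjb2 read 11.75, 11.68, 10.80 and 10.73 on knockout arrays 1 to 4 and 10.09, 9.77, 10.57, 9.62 and 8.94 on wildtype arrays 1 to 5. Every knockout array was above every wildtype array, with wildtype array 3 only 0.17 below knockout array 4. The means were 11.24 ± 0.55 (SD, n = 4) and 9.80 ± 0.60 (SD, n = 5). The log2 difference was 1.44 with an SE of 0.32, a fold of 2.71 with a 95% interval from 1.65 to 4.46. It did not pass the threshold of 0.05 on the limma adjusted p over all genes, at 0.0633, and ranked 299 of 18193 genes by p. The call depended on settings. The limma adjusted p was 0.0421 after quantile normalization and 0.0427 without wildtype array 3, and it was 0.601 with the Xist level as a covariate, where the difference was 1.47. With array weights, which count arrays far from the rest of their group for less, the limma adjusted p was 0.000928. The weights were 1.42 and 3.37 for knockout arrays 1 and 2, where Gjb2 was highest, and 0.32 and 0.31 for knockout arrays 3 and 4. With them 1644 genes passed, against 226 without.

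Gjb6 had the same order of arrays within each group. It read 10.53, 10.47, 9.58 and 9.47 on knockout arrays 1 to 4 and 9.24, 8.95, 9.79, 8.71 and 8.05 on wildtype arrays 1 to 5. The groups overlapped, since wildtype array 3 stood above knockout arrays 3 and 4. The means were 10.01 ± 0.56 (SD, n = 4) and 8.95 ± 0.64 (SD, n = 5), and the log2 difference was 1.06 with an SE of 0.34, a fold of 2.09 with a 95% interval from 1.24 to 3.52. The limma adjusted p was 0.161, and it was 0.00554 with the same array weights, at a difference of 1.30.

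Gjb5 stood the other way. It read 9.59, 9.74, 9.87 and 9.70 on knockout arrays 1 to 4 and 10.03, 9.95, 9.88, 10.18 and 10.13 on wildtype arrays 1 to 5. The groups did not overlap, but knockout array 3 and wildtype array 3 were only 0.0057 apart. The means were 9.73 ± 0.12 (SD, n = 4) and 10.03 ± 0.12 (SD, n = 5), and the genotypes differed by -0.31 on the log2 scale, with an SE of 0.11. The limma adjusted p was 0.199. The spread within a group was smaller for Gjb5 than for any of the other 3 genes.

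Gja1 read 12.25, 12.15, 11.37 and 11.56 on knockout arrays 1 to 4 and 11.55, 11.45, 11.46, 11.45 and 12.37 on wildtype arrays 1 to 5. Its values split each group instead of the groups from each other, with knockout arrays 1 and 2 and wildtype array 5 high. The means were 11.83 ± 0.43 (SD, n = 4) and 11.66 ± 0.40 (SD, n = 5). The log2 difference was 0.18 with a 95% interval from -0.36 to 0.71 and a limma adjusted p of 0.726, so a difference of up to 1.64-fold upward or down to 0.78 of the wildtype level lies within the interval. Without wildtype array 5 the difference was 0.36, with a limma adjusted p of 0.412. With array weights it was 0.57 and passed, at a limma adjusted p of 0.0343, and knockout arrays 3 and 4 and wildtype array 5 then had weights of 0.31 to 0.36. In the fit over all probe sets with array weights the same probe set, 1437992_x_at, did not pass, at a limma adjusted p of 0.0820. Of the Gja1 probe sets only 1438650_x_at passed there, at 0.0407.

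**Figure D1:**
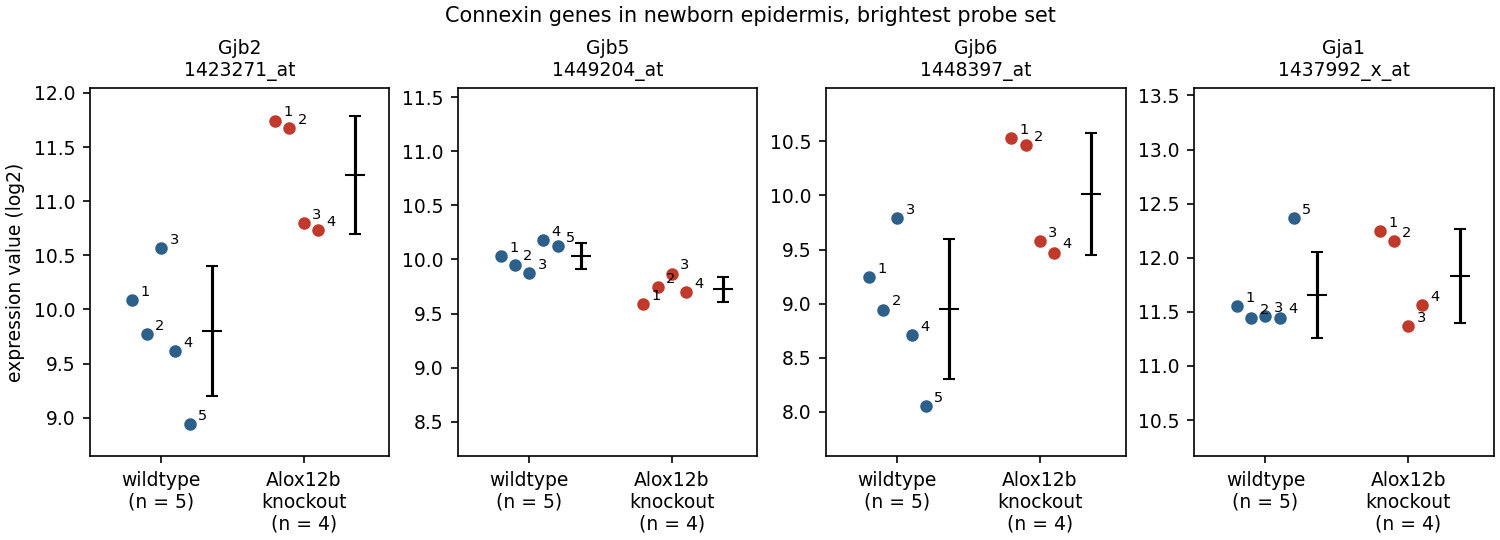
Expression values on the log2 scale for the brightest probe set of each gene, 1 point per array with its replicate number, and mean ± SD beside each group; each panel spans the same log2 range. All 4 knockout points of Gjb2 lie above the wildtype points, wildtype array 3 lies within the knockout range of Gjb6, Gjb5 differs by -0.31 and wildtype array 5 stands at 12.37 for Gja1.

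Of the 4 genes, 0 passed in limma, where 1.24% of all 18193 genes passed. Of the same 4, 3 reached an unadjusted p under 0.05, where 17.8% of all genes had one. The groups did not overlap for 2 of the 4, Gjb2 and Gjb5, against 8.28% of all genes. The median difference of the 4 genes was 0.62, and the median over all genes tested was 0.02. All genes tested include dim ones, unlike these 4, and over genes with a mean level of at least 5 the median was -0.12. In the fit over all probe sets 0 of the 9 members passed, where 1.11% of all probe sets did.

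The knockout arrays formed 2 levels in 3 of the genes. On arrays 1 and 2 Gjb2 read 11.68 to 11.75, Gjb6 10.47 to 10.53 and Gja1 12.15 to 12.25. On arrays 3 and 4 they read 10.73 to 10.80, 9.47 to 9.58 and 11.37 to 11.56. Knockout arrays 3 and 4 are also those with the narrowest spread over all probe sets, and the part of that spread in these levels was not tested. The split was not particular to connexins. Ezr read 10.64, 10.54, 9.26 and 9.28 on knockout arrays 1 to 4, and the mean of the skeletal muscle markers was 6.07, 5.84, 4.57 and 4.43. Other lists did not split so, such as the fibroblast markers, with means of 6.92, 6.89, 5.35 and 8.83. After quantile normalization, which gives all arrays 1 distribution, the differences were 1.50 for Gjb2, 1.12 for Gjb6, -0.29 for Gjb5 and 0.19 for Gja1.

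The only wildtype array with the female pattern of Xist allows a comparison within that pattern, of 4 arrays with 1 and thus without a test. Gjb2 read 9.62 on wildtype array 4, below all 4 knockout arrays, and the knockout mean was 1.62 higher. Gjb6 read 8.71 there, again below all 4, and the knockout mean was 1.30 higher. Gjb5 read 10.18 there, above all 4 knockout arrays, and for Gja1 3 of the 4 knockout arrays were above the 11.45 of that array.

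Gja1 was read by 6 probe sets, so its pattern across the arrays can be set beside itself. Their means over all arrays were 11.73 for 1437992_x_at, 10.60 for 1415800_at, 10.38 for 1438945_x_at, 10.27 for 1438650_x_at, 6.62 for 1415801_at and 4.45 for 1438973_x_at, and such levels depend on the probes. The differences ran from -0.02 for 1415800_at to 0.31 for 1438650_x_at, with limma adjusted p values over all probe sets from 0.498 to 0.980. The sign for 1415800_at was not stable, at 0.18 without wildtype array 5. Wildtype array 5 was the highest wildtype array in all 6 sets, at 11.42 in 1415800_at and 11.13 in 1438945_x_at. With group means taken out, the correlation between pairs of these sets over the 9 arrays ran from 0.65 to 0.997 over 15 pairs, all on the same RNA. Of the 6 sets, 4 carry the suffix _x_at, which marks probes that may also match other transcripts.

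**Figure D2:**
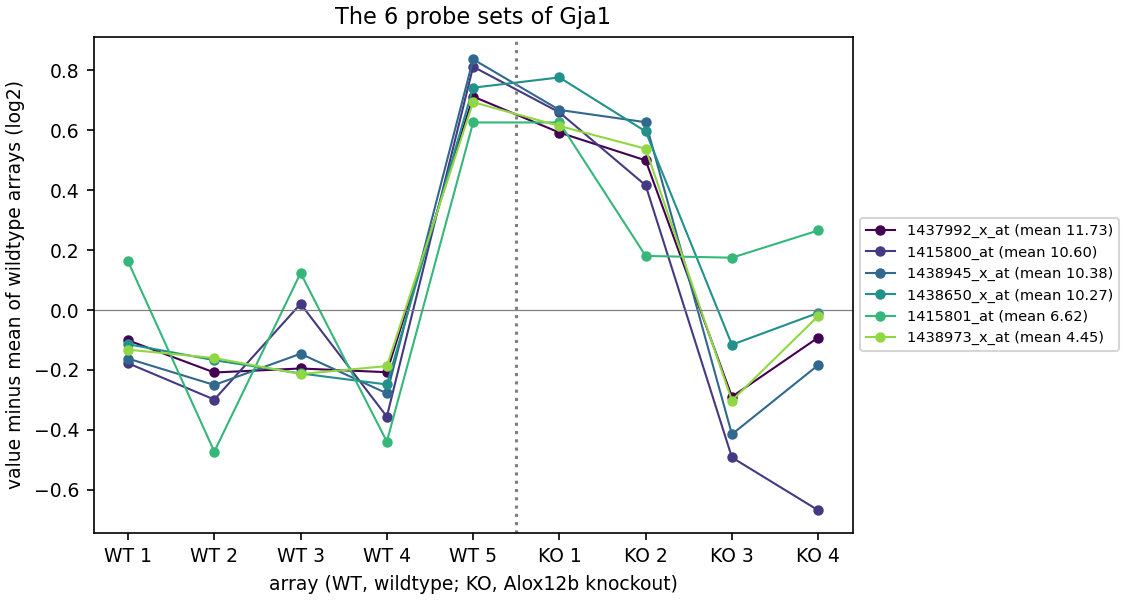
Each line is 1 of the 6 probe sets of Gja1, drawn as its log2 value on an array minus its own mean over the wildtype arrays. Wildtype array 5 and knockout arrays 1 and 2 are above the wildtype mean in all 6 sets, and knockout arrays 3 and 4 are below it in all sets but 1415801_at.

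Whether the 4 genes differed between the genotypes by unequal amounts was asked of the log2 difference between 2 genes within each array, for all 6 pairs. The exact permutation test over the 126 splits of the 9 arrays into 4 and 5 was two-sided and cannot give a p below 0.00794. Gjb2 minus Gjb5 was 1.51 ± 0.62 (SD, n = 4) in knockout and -0.23 ± 0.70 (SD, n = 5) in wildtype, a change of 1.75 with an exact permutation p of 0.0159 and 0.0317 after Benjamini-Hochberg adjustment over the 6 pairs. Gjb2 minus Gja1 was -0.59 ± 0.16 (SD, n = 4) and -1.86 ± 0.95 (SD, n = 5), a change of 1.26 with an exact permutation p of 0.0159, adjusted 0.0317. The first of these was larger on every knockout array than on any wildtype array, as was the second.

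The tightest of these measures joined the 2 neighbouring genes. Gjb2 minus Gjb6 was 1.22, 1.21, 1.22 and 1.26 on knockout arrays 1 to 4 and 0.84, 0.83, 0.77, 0.91 and 0.89 on wildtype arrays 1 to 5. The SD within a group was 0.02 and 0.05, while that of each gene alone was 0.55 to 0.64. The change between the genotypes was 0.38, with an exact permutation p of 0.00794, the smallest the design allows, and an adjusted p of 0.0317. As read by 1 probe set each, Gjb2 thus differed between the genotypes by more than Gjb6 did, in the same direction. The part of strain, which is labelled for the wildtype samples only, was not tested. A ratio within an array shows unequal change and says nothing of which gene changed. With any 1 array other than wildtype array 3 left out, the adjusted p of all 6 pairs was above the threshold, while the direction of all 6 was kept. For Gjb2 minus Gjb6 it was then 0.0536 to 0.107, with changes of 0.37 to 0.39. The smallest exact permutation p is then 0.0179 without a knockout array and 0.0286 without a wildtype array. For this pair the groups stay apart whichever array is left out. Its adjusted p is therefore limited by the number of splits and by the other pairs, and cannot show a weaker difference.

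For the other 3 pairs the groups overlapped. Gjb5 minus Gjb6 changed by -1.37, with an exact permutation p of 0.0317 and an adjusted p of 0.0476. Gjb6 minus Gja1 changed by 0.88 and Gjb5 minus Gja1 by -0.48, with exact permutation p values of 0.0952 and 0.159 and adjusted values of 0.114 and 0.159. The value of Gjb6 minus Gja1 was -4.31 on wildtype array 5, where Gjb6 was lowest and Gja1 highest. Without that array the change was 0.48 for Gjb6 minus Gja1 and 0.87 for Gjb2 minus Gja1.

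**Figure D3:**
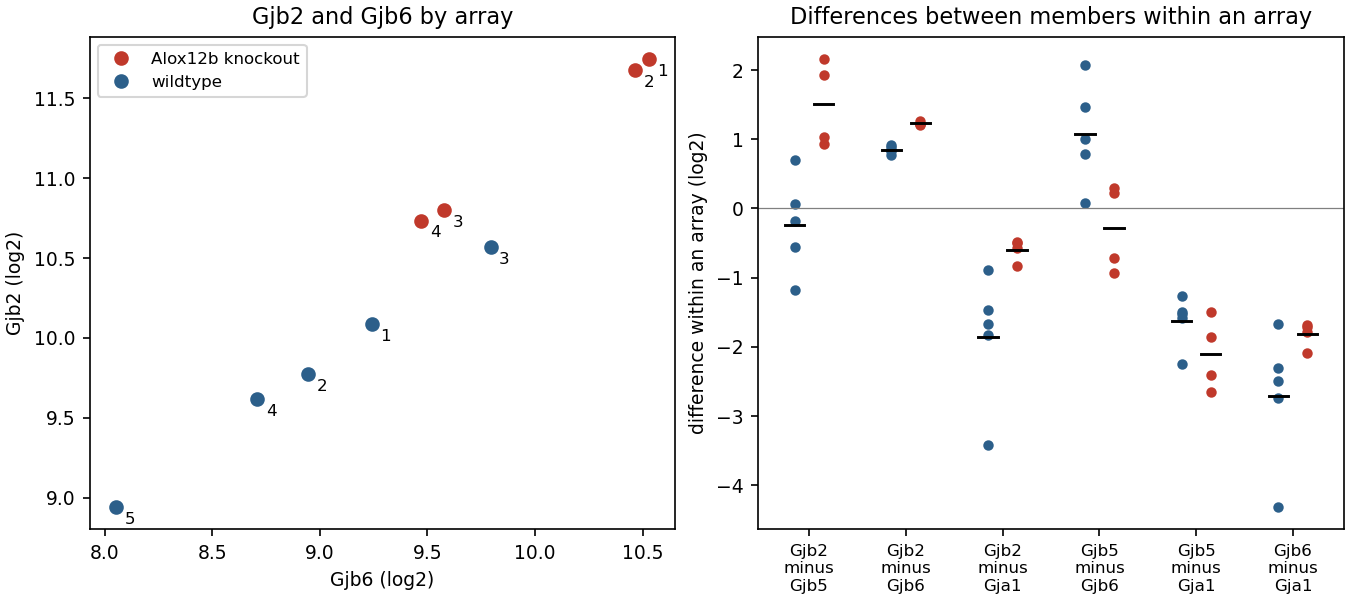
Left, Gjb2 against Gjb6 on the log2 scale, 1 point per array with its replicate number. Right, the log2 difference between 2 genes within an array for the 6 pairs, 1 point per array (red, knockout; blue, wildtype) with bars at the group means. Gjb2 minus Gjb6 spans 1.21 to 1.26 on the knockout arrays and 0.77 to 0.91 on the wildtype arrays.

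Across the 9 arrays Gjb2 and Gjb6 had a Pearson r of 0.98 and a Spearman rho of 0.95, and with group means taken out r was 1.00. Gjb5 ran against both, at r = -0.90 with Gjb2 and -0.86 with Gjb6, and at -0.70 and -0.71 with group means taken out. Gja1 had r = 0.17 with Gjb2 and 0.14 with Gjb6. With group means taken out and without wildtype array 5, these were 0.64 and 0.62. The points share arrays, RNA and genotype, and the values are given as descriptions.

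Of all genes with a mean of at least 6, Gjb6 was the most like Gjb2 after group means were taken out, at r = 0.999 over 9 arrays among 5066 genes. It was followed by Magi3, a membrane-associated guanylate kinase scaffold gene, at 0.995, and Dnase1l3, a secreted deoxyribonuclease gene, at 0.983. Of these 3 genes only Dnase1l3 passed the test between the genotypes, and it rose by 1.50 with a limma adjusted p of 0.0295. For Gjb6 the order was Gjb2, Magi3 at 0.991 and Tent5b at 0.983. For Gjb5 it was Aup1 at 0.974, Gtpbp6 at 0.955 and Card14, an adaptor gene of NF-kB signalling in keratinocytes, at 0.955. For Gja1 it was Wdr45b at 0.996, Sypl at 0.994 and Pgrmc1 at 0.994. With the group means kept, Magi3 stood first for both Gjb2 and Gjb6, at 0.993 each, and Scnn1g, a subunit gene of the epithelial sodium channel, was at 0.992 with Gjb2. Then Rnf222 was at 0.986 with Gjb6, Ift46 at 0.966, Insyn2a at 0.963 and Cyp17a1, which fell by 1.07 at a limma adjusted p of 0.0200, at 0.944 with Gjb5, and Nkiras1 at 0.980, Wdr45b at 0.977 and Nxt1 at 0.970 with Gja1.

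In the mouse gene table Gjb2 and Gjb6 lie side by side on chromosome 14, between the lens connexin gene Gja3 and Cryl1. These outer neighbours had differences of 0.06 for Gja3, which was dim at a mean of 2.95, and 0.10 for Cryl1 at a mean of 7.80, and limma adjusted p values of 0.873 and 0.609. Gjb5 lies on chromosome 4. Of the protein-coding genes within 3 places of the 4 members, 13 that are no member themselves were measured, and 0 passed in limma while 3 reached an unadjusted p under 0.05, with differences from -0.73 to 0.70. Over all genes 17.8% reached that p.

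The other connexins were followed through 10 measured genes. Of the 10, 0 passed in limma, 1 reached an unadjusted p under 0.05, where 17.8% of all genes did, and they had a median difference of 0.11. Gjc1 (Cx45), a connexin of vascular and muscle cells, had the highest mean of the 10 and read 5.99 ± 0.90 (SD, n = 4) against 5.32 ± 0.21 (SD, n = 5), where the third knockout array was at 4.70 and the other 3 at 6.19 to 6.77. Without knockout array 3 it was higher by 1.11, with a limma adjusted p of 0.0195. Gja4 read 3.32 ± 0.09 against 3.41 ± 0.22 and Gja10 3.58 ± 0.50 against 3.19 ± 0.30 (SD, n = 4 and 5), and no detection call was used here to set such levels against background.

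Pannexins form channels of a similar fold that open to the outside of the cell and release ATP, and 0 of the 3 passed in limma while 1 had an unadjusted p under 0.05. Such a p was reached by 17.8% of all genes. Panx1, named after its values were seen, read 4.32, 4.20, 3.72 and 3.65 on knockout arrays 1 to 4 and 4.57 to 4.84 on the wildtype arrays. The groups did not overlap, and Panx1 differed by -0.71 with an SE of 0.16. The limma adjusted p was 0.0592, and without knockout array 1 it was 0.0345 at -0.82. Panx2 differed by 0.15 and Panx3 by 0.26, both dim.

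**Figure D4:**
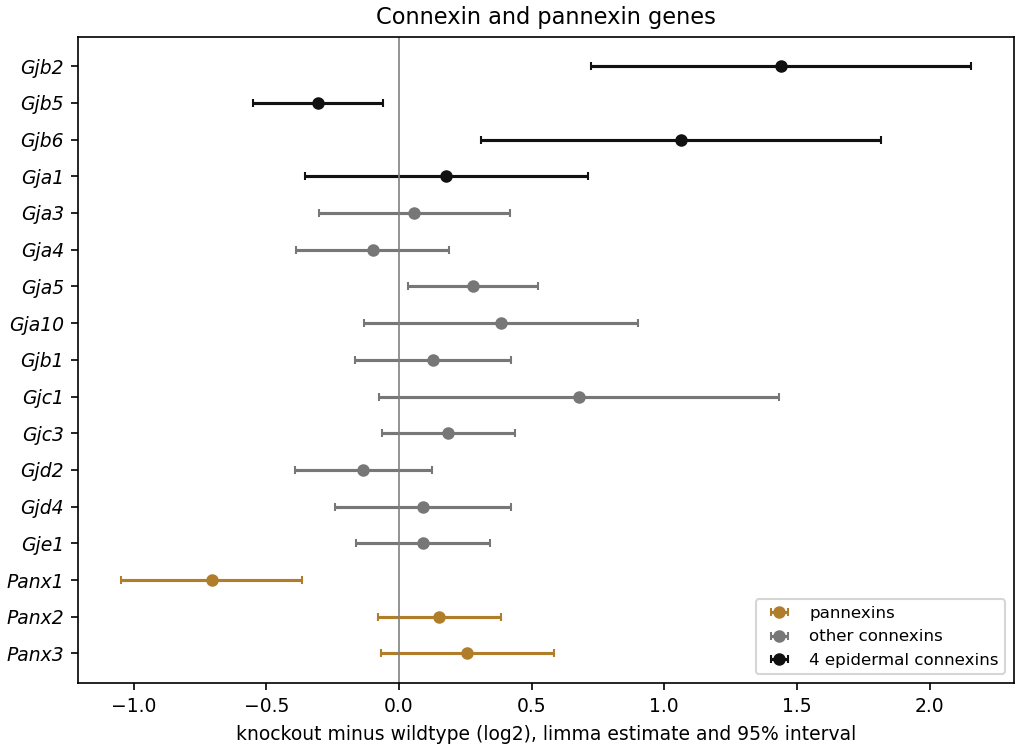
Knockout minus wildtype on the log2 scale for the 4 epidermal connexins, 10 other connexins and 3 pannexins, with limma's 95% interval, not adjusted for the number of genes. Gjb2 at 1.44 and Gjb6 at 1.06 stand farthest to the right and Panx1 at -0.71 farthest to the left.

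Genes for proteins that bind, move, phosphorylate or degrade connexins were followed next. Of 23 listed 20 were measured, and 0 passed in limma. An unadjusted p under 0.05 was reached by 5, all lower, where 17.8% of all genes had one. Negative differences numbered 14, with a median of -0.30 over the list. A lean to lower values was also general, with a median of -0.12 over all genes with a mean level of at least 5. Cav1, the caveolin that binds connexins in membrane rafts, read 6.77 ± 0.68 (SD, n = 4) against 7.86 ± 0.66 (SD, n = 5), which is -1.10 at a limma adjusted p of 0.181. Nedd4, a ubiquitin ligase that marks Cx43 for removal, read 7.43 ± 0.17 (SD, n = 4) against 8.09 ± 0.28 (SD, n = 5), which is -0.66 at a limma adjusted p of 0.0725, and its groups did not overlap. The largest positive differences were 0.54 for Ccn3, a matricellular partner of Cx43, which stood at 5.62 on 1 knockout array (array 4) and at 3.12 to 3.77 on the remaining 3, and 0.34 for the protein kinase C gene Prkce.

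Stress keratins mark wounded and hyperproliferative epidermis, the setting in which Gjb2 and Gjb6 are known to be induced. Of the 4, 0 passed in limma and 2 reached an unadjusted p under 0.05, both higher, where 17.8% of all genes reached it. Krt16 read 11.09, 10.83, 6.77 and 7.92 on knockout arrays 1 to 4 and 5.94, 6.01, 8.14, 6.25 and 3.31 on wildtype arrays 1 to 5, which is 3.22 higher in the mean at a limma adjusted p of 0.161. Like Gjb2 and Gjb6, it was highest on knockout arrays 1 and 2, highest in wildtype on array 3 and lowest on array 5. Krt6b differed by 2.52 and Krt6a by 1.21, with limma adjusted p values of 0.126 and 0.372. Krt17 read 6.90 ± 0.22 (SD, n = 4) against 7.23 ± 1.01 (SD, n = 5), and without wildtype array 5, where it was 5.42, its difference was -0.78, at a limma adjusted p of 0.0178. With group means taken out, r with Gjb2 over the 9 arrays was 0.94 for Krt16, 0.91 for Krt6b and 0.88 for Krt6a, and r with Gja1 was 0.07, -0.24 and -0.02. Without wildtype array 5 as well, r with Gja1 was 0.74, 0.53 and 0.56. Gjb5 ran the other way, at r = -0.68 with Krt16, -0.60 with Krt6b and -0.88 with Krt6a. Krt17 was less like the other stress keratins. With group means taken out, its r was 0.70 with Gjb2, -0.34 with Gjb5 and -0.61 with Gja1. Without wildtype array 5 as well, these were 0.50, -0.14 and 0.10.

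Markers of the cells in the sheets moved with the groups in part, and their part in the connexin values was not tested. Of 8 basal keratinocyte markers 7 had a negative difference, 5 of them at an unadjusted p under 0.05, and 0 passed in limma, and the mean of the list ran from 6.52 to 6.82 in knockout and from 7.02 to 7.86 in wildtype. The means of the 11 spinous and granular markers overlapped, with knockout arrays at 11.73 to 12.45 and wildtype arrays at 11.86 to 12.39. The 12 hair follicle markers ran from 4.27 to 5.05 and from 4.68 to 5.27. Fibroblasts and smooth muscle also make Gja1. The mean of the 7 fibroblast markers was 6.92, 6.89, 5.35 and 8.83 on knockout arrays 1 to 4 and 6.52, 6.50, 7.44, 7.06 and 5.03 on wildtype arrays 1 to 5. The mean of the 5 smooth muscle markers was 6.28 on knockout array 4 and 3.50 to 4.00 on all other arrays, and that of the 6 endothelial markers ran from 3.22 to 3.70 in knockout and from 3.28 to 4.01 in wildtype. Every list had 0 of its measured markers past the threshold in limma. At an unadjusted p under 0.05 stood 2 spinous and granular, 4 hair follicle, 2 melanocyte, 2 adipocyte and 1 Schwann cell markers, and 0 of the fibroblast, smooth muscle, endothelial, Langerhans cell and skeletal muscle markers. Over all genes 17.8% had such a p, and these counts are given as descriptions. List means ran from 4.34 to 5.00 in knockout and 3.27 to 4.58 in wildtype for 7 melanocyte markers, and from 6.14 to 6.39 and 5.25 to 7.03 for 7 Langerhans cell markers. The ranges were 4.43 to 6.07 and 4.03 to 7.22 for 6 skeletal muscle markers, 4.04 to 4.56 and 3.78 to 8.55 for 4 adipocyte markers, and 6.07 to 6.15 and 5.68 to 6.42 for 2 Schwann cell markers.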

How the data were processed

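Values were taken on the log2 scale as the authors deposited them, in a single table, with no further scaling. The submitters' processing notes list affy, with background correction, normalization and probe summary not given in the sources used here. With 4 and 5 arrays the precision is limited by that number. Titles gave the groups and the replicate numbers, and the samples are labelled biological replicates. Identical values between 2 arrays of a group numbered at most 124, so none was a copy.

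Gene names came from the platform annotation. Of its probe sets with a single gene, 34741 were found in the mouse gene table of GRCm38.p6 and 204 were not. The fit over the whole table, by gene and by probe set, used limma 3.58.1 (R 4.3.3, lmFit then eBayes) with a term for genotype alone and Benjamini-Hochberg adjustment at 0.05. Pairs of members were compared with exact permutation tests. On simulated data with 200 of 18193 genes changed between knockout and wildtype, the code recovered 71% of changes of 1 and 96% of changes of 2 on the log2 scale, with 5 unchanged genes called.

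Members, lists and named-gene rules were chosen with earlier results of these data known. Alternatives were other probe set rules, a level filter, quantile normalization, median centring, trend and robust settings, array weights, Xist as a covariate, the replicate block, a looser threshold and each array left out. Named genes were all members, the 3 brightest other connexins, the 2 largest differences each way among connexin partners, the stress keratins and the 3 genes most like each member. Cell type lists were also counted for melanocytes, Langerhans cells, skeletal muscle, adipocytes and Schwann cells.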

Additional observations from a re-analysis of the deposited data

Results flagged for a closer look

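In 10 of 96 groups of values checked, 1 array stood farther from the rest than Dixon's 95% critical value, where chance marks about 5% of groups. The groups are not independent, since several are probe sets of Gja1 on the same RNA and both Xist and Eif2s3y follow sex. The count therefore cannot show an excess over that share. On wildtype array 5 the Gja1 probe sets 1437992_x_at, 1438945_x_at, 1438650_x_at and 1438973_x_at read 12.37, 11.13, 10.87 and 5.05, against 11.45 to 11.55, 10.02 to 10.15, 9.88 to 10.01 and 4.14 to 4.22 on the other wildtype arrays. On the same array Krt17 read 5.42, against 7.63 to 7.72, and the mean of the melanocyte markers was 3.27, against 4.38 to 4.58. Gja4 read 3.19 on knockout array 3, against 3.35 to 3.38 on the other knockout arrays. The mean of the smooth muscle markers was 6.28 on knockout array 4, against 3.65 to 3.91. Wildtype array 4 read 10.95 for Xist, against 3.23 to 4.32, and 2.11 for the Y-linked gene Eif2s3y, against 7.67 to 8.04.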

How the results depend on the processing

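The differences of Gjb2, Gjb6 and Gjb5 kept their direction in all alternatives run, and that of Gja1 in all but 1. With array weights, which were 0.31 to 0.36 for knockout arrays 3 and 4 and wildtype array 5, the differences of Gjb2, Gjb6 and Gja1 passed, at 1.67, 1.30 and 0.57, with 3 member probe sets and 1644 genes past the threshold. The Gja1 probe set among these 3 was 1438650_x_at and not 1437992_x_at, the brightest, which is the value of the gene. Gjb2 also passed, at 1.44, among genes with a mean level of at least 5 (limma adjusted p of 0.0450) and at a threshold of 0.1, where 571 genes passed, and at 1.50 after quantile normalization, where 1 member probe set passed, as with trend and robust settings. Gja1 was -0.021 without the less specific probe sets. The probe set 1415800_at of Gja1 turned to 0.48 with array weights, 0.34 with the Xist covariate, 0.18 with the replicate block, and 0.14, 0.19 and 0.18 without knockout array 3, knockout array 4 and wildtype array 5, within a range of -0.25 to 0.19 with 1 array left out. The genes passing numbered 226 in the report, 9 with the Xist covariate, 119 with the replicate block and 62 to 281 with 1 array left out; 498 probe sets passed in the fit of all probe sets. With the replicate block Gjb2 differed by 1.23 and Gjb6 by 0.84, neither past the threshold, and the block changed no call of a member. No knockout array is numbered 5, so the block gives the same differences as leaving out wildtype array 5 and is no separate check of them. Same-numbered arrays had correlations of their deviations of -0.21, -0.10, -0.21 and 0.18. So few values cannot show whether arrays of the same number share anything beyond it.

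With 1 array left out, the differences ran from 1.23 to 1.63 for Gjb2, 0.84 to 1.27 for Gjb6, -0.35 to -0.26 for Gjb5 and 0.04 to 0.36 for Gja1. The number past the threshold ran from 0 to 1 for member probe sets, other connexins, pannexins and stress keratins. The pair changes ran from 1.51 to 1.98 for Gjb2 minus Gjb5, 0.36 to 0.39 for Gjb2 minus Gjb6, 0.87 to 1.50 for Gjb2 minus Gja1, -1.62 to -1.12 for Gjb5 minus Gjb6, -0.69 to -0.30 for Gjb5 minus Gja1 and 0.48 to 1.14 for Gjb6 minus Gja1. With 1 array left out, the 4 pairs that had passed did so without wildtype array 3 only, as then did Gjb6 minus Gja1. With fewer splits the smallest exact permutation p is 0.0179 without a knockout array and 0.0286 without a wildtype array. The replicate block for pairs and lists was added after the data were seen.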
